A study of Mus musculus with 24 samples.

Results

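The 10 genes described here are the core of the HIF-1 and prolyl hydroxylase axis, the oxygen-sensing pathway that has been proposed as a basis of healing in the MRL/MpJ mouse. They were Hif1a and Epas1, which encode HIF-1α and HIF-2α, the prolyl hydroxylase genes Egln1, Egln2 and Egln3, the ubiquitin ligase subunit gene Vhl, and 4 genes induced by HIF, Vegfa, Bnip3, Slc2a1 and Pdk1. The genes were taken by symbol and not by a filter on their values, though the list was chosen with earlier results of these data known. All 10 of them were among the 14159 genes with a symbol in the matrix. Expression was measured by bulk RNA sequencing of polyadenylated RNA from whole quadriceps muscle in 24 libraries, 3 in each of 8 groups. C57BL/6 mice (B6) were set against MRL/MpJ mice (MRL), an inbred strain known for closing ear holes. The methods describe females of 6 to 8 weeks at surgery. The age of uninjured mice at collection is not given, so age may differ in comparisons with uninjured muscle. Within each strain 1 group was not injured, and in the other 3 groups a 3 mm section of the quadriceps was removed (volumetric muscle loss) and the gap received saline (the control injury), decellularized extracellular matrix from pig small intestine (ECM) or polyethylene particles (PE). Injured muscle was collected at day 21, and the labels give no day for uninjured muscle. No transgene or deletion is named for any group. Operated mice also received the opioid buprenorphine and an anesthetic, which are not described for uninjured mice, so their effect cannot be told apart from that of the injury in comparisons with uninjured muscle.

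HIF-1 and HIF-2 are each made of an oxygen-regulated α subunit and the shared partner ARNT. When oxygen is present, the prolyl hydroxylases mark the α subunit, VHL binds the marked protein and the ligase complex sends it to the proteasome, and when oxygen falls the α subunit accumulates and turns on genes of blood vessel growth, glucose uptake, glycolysis and mitochondrial removal. Egln1 and Egln3 are themselves known HIF targets. Because the α subunits are controlled mainly at the level of the protein, RNA levels report on the supply of transcripts and on the targets, and neither protein nor oxygen was measured in these files.

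The promoters of the genes whose RNA changed in PE-treated B6 muscle are shown because they include genes that fell and 1 gene that rose. RefSeq promoter sequences (build GRCm38.p6) matched 9 of the 10 genes, and Epas1 was not matched. For Vegfa, Pdk1 and Egln2 the table holds 2 start sites, of which the one further upstream is shown. The 250 bases before the start were searched on both strands for ACGTG and GCGTG, the core of the element that HIF binds, and a match on one strand can overlap one on the other. Matches are in capitals.
Egln1 promoter, chr8:124949255-124949504 (- strand): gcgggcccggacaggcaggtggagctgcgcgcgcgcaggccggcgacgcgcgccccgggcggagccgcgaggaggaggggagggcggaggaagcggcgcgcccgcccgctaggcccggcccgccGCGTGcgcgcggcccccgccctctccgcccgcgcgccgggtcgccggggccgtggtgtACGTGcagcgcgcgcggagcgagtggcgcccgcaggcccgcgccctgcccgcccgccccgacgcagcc
Vegfa promoter, chr17:46032378-46032627 (- strand): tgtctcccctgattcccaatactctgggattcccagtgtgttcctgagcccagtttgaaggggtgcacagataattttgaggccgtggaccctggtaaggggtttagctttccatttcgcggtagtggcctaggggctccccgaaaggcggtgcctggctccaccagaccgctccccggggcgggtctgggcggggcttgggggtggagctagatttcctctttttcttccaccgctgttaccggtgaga
Bnip3 promoter, chr7:138909507-138909756 (- strand): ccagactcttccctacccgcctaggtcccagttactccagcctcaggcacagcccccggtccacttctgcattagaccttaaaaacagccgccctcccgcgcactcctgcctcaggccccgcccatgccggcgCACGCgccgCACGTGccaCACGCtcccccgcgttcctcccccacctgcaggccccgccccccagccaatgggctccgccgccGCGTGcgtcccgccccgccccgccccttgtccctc
Pdk1 promoter, chr2:71872974-71873223 (+ strand): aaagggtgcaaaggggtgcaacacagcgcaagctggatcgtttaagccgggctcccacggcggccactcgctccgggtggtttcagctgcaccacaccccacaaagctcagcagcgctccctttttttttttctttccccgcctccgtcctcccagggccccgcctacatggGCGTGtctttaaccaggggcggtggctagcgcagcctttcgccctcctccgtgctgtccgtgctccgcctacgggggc
Slc2a1 promoter, chr4:119108495-119108744 (+ strand): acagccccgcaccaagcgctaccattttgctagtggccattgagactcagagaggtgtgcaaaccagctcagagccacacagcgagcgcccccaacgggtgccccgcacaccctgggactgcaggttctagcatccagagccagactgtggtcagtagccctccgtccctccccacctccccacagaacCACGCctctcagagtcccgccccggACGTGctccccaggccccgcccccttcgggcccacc
The core was present 2 times in the Egln1 window, 5 times in that of Bnip3, 1 time in that of Pdk1 and 2 times in that of Slc2a1, and no match was found in the Vegfa window shown. At the second start site there were 2 matches for Vegfa, 0 for Pdk1 and 1 for Egln2. Among the other members there were 3 matches for Hif1a, 4 for Egln2, 1 for Egln3 and 0 for Vhl. Of 32851 mouse promoter windows of the same length, 38.6% held at least 1 match, so a match is common and does not mark a site. Matches were found at genes whose RNA fell with PE in B6 mice, such as Bnip3, and at Slc2a1, whose RNA rose.

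All 10 genes were well above the lowest detectable level. The lowest library value among them was 6.77 CPM (counts scaled to a common library total), for Vhl, and 3 counts correspond to 0.119 CPM at the mean effective library size of 25149678 counts. The values below are log2 CPM, which is not corrected for gene length, so levels were not compared between genes. The label of the tissue was checked against 8 muscle fibre markers, none of which was at 0, and their summed level was 25913 to 161415 CPM over the 24 libraries. In PE-treated MRL mice, replicate 2 stood apart from the other two libraries of its group, with correlations of 0.812 and 0.827 across genes where the other two correlated at 0.966. That library had the lowest muscle fibre sum of all 24, and its 7 macrophage markers summed to 4277 CPM against 238 and 239 CPM in the other two. In PE-treated B6 mice, replicate 2 had the highest macrophage sum of all 24 libraries, 5155 CPM, and the second lowest muscle fibre sum, 41814 CPM. For comparisons that use these 2 libraries, calls of members that change when one is left out are given with and without it. Many signs and values that move are given in the same way, but not all of them. In whole muscle, fewer cells of a type and less RNA per cell cannot be told apart.

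The first question was whether the axis differed between the strains. Averaged over the 4 treatments, 1 of 10 genes differed, the HIF-2α gene Epas1, which was 1.5-fold higher in MRL mice, and 15.2% of all genes differed in the same comparison. Hif1a did not pass the test, with a difference of -0.05 on the log2 scale (MRL minus B6, SE 0.13, 95% interval -0.33 to 0.22, adjusted p = 0.799). It was -0.13 without MRL PE replicate 2 and 0.0105 without B6 PE replicate 2. The direction of the called gene was matched by 7.37% of all genes, so 1 member in 10 was near the background. The adjusted p-values here and below are from limma across all genes with Benjamini-Hochberg adjustment within each comparison.

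The oxygen-regulated subunits behaved differently from each other. In B6 mice, the Hif1a level was 5.05, 5.54 and 5.04 log2 CPM in uninjured muscle, 5.56, 4.99 and 4.95 with saline, 5.14, 5.29 and 5.42 with ECM, and 5.79, 6.40 and 5.45 with PE. In MRL mice, it was 5.17, 5.28 and 5.11 log2 CPM in uninjured muscle, 5.61, 5.07 and 4.97 with saline, 5.37, 5.02 and 5.19 with ECM, and 5.56, 6.32 and 5.32 with PE. The strains overlapped in every treatment, and the highest value in each strain was PE replicate 2. Within treatments the Hif1a difference between strains ran from -0.15 with PE to 0.05 with saline on the log2 scale. With PE it was -0.44 without MRL PE replicate 2, and its sign turned without B6 PE replicate 2, to 0.11. Neither value passed the test (adjusted p = 0.211 and 0.899, limma). In uninjured muscle it was -0.02 with a 95% interval from -0.57 to 0.52, so a change beyond 0.57 in either direction lay outside the interval. Group means of Hif1a ran from 5.17 ± 0.34 log2 CPM (SD, n = 3) in saline-treated B6 mice to 5.88 ± 0.48 (SD, n = 3) in PE-treated B6 mice, and no group differed from its neighbour in that order by more than their summed SDs.

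**Figure D1:**
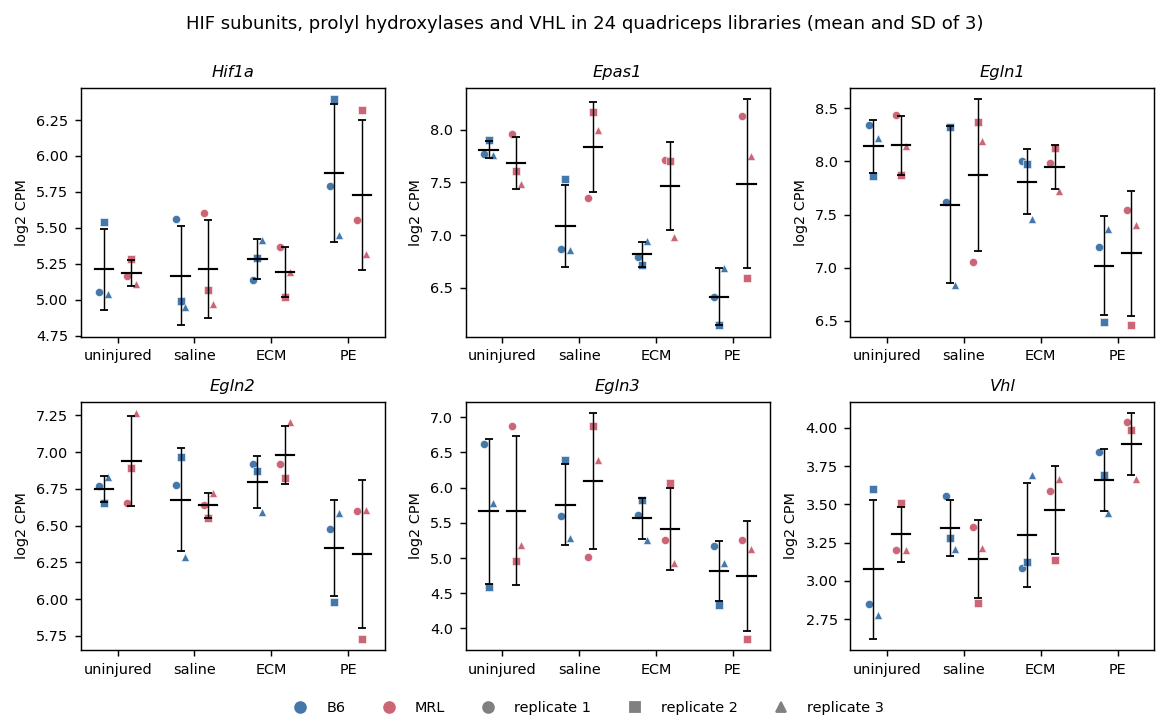
Levels of the HIF subunit, prolyl hydroxylase and Vhl genes in log2 CPM (y axis) for the 4 treatments (x axis) in B6 (blue) and MRL (red) mice. Each symbol is 1 library, with the shape giving the replicate number, the horizontal bar is the mean and the error bar is the SD of 3 libraries. Epas1 lies lower with PE than in uninjured muscle in B6 mice, while Hif1a overlaps between the strains in every treatment.

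Epas1, the gene of HIF-2α, which is abundant in endothelium, fell in B6 mice with PE and was higher in MRL mice in the average over the 4 treatments. In B6 mice, its level was 7.77, 7.90 and 7.76 log2 CPM in uninjured muscle, 6.87, 7.53 and 6.85 with saline, 6.80, 6.71 and 6.95 with ECM, and 6.41, 6.15 and 6.69 with PE. All injured B6 libraries were below all uninjured ones. In MRL mice, its level was 7.96, 7.61 and 7.49 log2 CPM in uninjured muscle, 7.35, 8.16 and 7.99 with saline, 7.71, 7.70 and 6.98 with ECM, and 8.13, 6.59 and 7.75 with PE. Only the ECM groups were separate between strains, where all 3 MRL libraries were above all 3 B6 libraries, and 25.8% of all genes were likewise separate there.

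The Epas1 difference averaged over treatments was 0.58 on the log2 scale (MRL minus B6, SE 0.16, 95% interval 0.26 to 0.91, adjusted p = 0.0161, limma). By treatment it was -0.13 in uninjured muscle, 0.75 with saline, 0.65 with ECM and 1.07 with PE. None of these 4 was called on its own, with adjusted p-values of 0.945, 0.297, 0.38 and 0.0663, and the unadjusted p was under 0.05 for saline and PE. With PE, the difference was called when the replicate number was fitted as a block (adjusted p = 0.0184, limma). No label pairs libraries of the strains, and the block was chosen from correlations in these same data, so this call is not separate support. The PE difference was also called without MRL PE replicate 2, at 1.52 (adjusted p = 4.5e-04), and not without B6 PE replicate 2, at 0.94 (adjusted p = 0.203). The averaged difference was called in every fit that left out 1 library, from 0.50 to 0.70. Whether the strain difference of Epas1 itself changed from uninjured to saline was tested as an interaction, which was 0.88 on the log2 scale and did not pass the test (adjusted p = 1, unadjusted p = 0.0614). The summed level of 7 endothelial markers had a range of 237 to 382 CPM in the 12 B6 libraries and 223 to 369 CPM in the 12 MRL libraries, and 0 of the 7 markers were called in the averaged comparison. The macrophage marker sum had a median of 329 CPM in B6 and 213 CPM in MRL libraries, and 2 of 7 macrophage markers were called lower in MRL mice. Red blood cell markers had a median sum of 167 CPM in B6 and 700 CPM in MRL libraries, with Hba-a1, Hbb-bs and Alas2 called higher in MRL mice and Hba-a2 lower. The part of cell composition in the Epas1 difference was not tested.

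Egln1 encodes the main hydroxylase that sets HIF-1α turnover. In B6 mice, its level was 8.34, 7.86 and 8.22 log2 CPM in uninjured muscle, 7.62, 8.32 and 6.84 with saline, 8.0, 7.97 and 7.46 with ECM, and 7.20, 6.49 and 7.37 with PE. In MRL mice, it was 8.43, 7.87 and 8.15 log2 CPM in uninjured muscle, 7.05, 8.37 and 8.19 with saline, 7.99, 8.13 and 7.72 with ECM, and 7.55, 6.46 and 7.40 with PE. PE libraries were below all uninjured libraries in both strains, and the saline libraries were spread over most of the range. Averaged over treatments, Egln1 differed between strains by 0.13 on the log2 scale (95% interval -0.26 to 0.53, adjusted p = 0.642). The value was 0.22 without MRL PE replicate 2 and 0.07 without B6 PE replicate 2.

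Egln2 and Egln3, which encode the other HIF prolyl hydroxylases, showed no strain difference that passed the test. The averaged difference was 0.07 on the log2 scale for Egln2 (95% interval -0.17 to 0.32, adjusted p = 0.678) and 0.03 for Egln3 (95% interval -0.57 to 0.63, adjusted p = 0.95). Without MRL PE replicate 2 these were 0.15 and 0.14, and without B6 PE replicate 2 they were 0.03 and -0.03. Egln3 varied widely within groups. Its level in uninjured muscle was 6.62, 4.58 and 5.79 log2 CPM in B6 mice and 6.88, 4.96 and 5.18 in MRL mice. The strains overlapped, the group SD reached 1.05, and 32.8% of its variance lay between groups, the smallest share among the 10 genes. Egln2 group means ranged from 6.31 ± 0.50 (SD, n = 3) log2 CPM in PE-treated MRL mice to 6.98 ± 0.20 (SD, n = 3) in ECM-treated MRL mice. The sign of the averaged difference of Egln1, Egln2 and Egln3 turned when libraries were scaled to equal totals.

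Vhl, the substrate receptor of the ligase that removes hydroxylated HIF-α, had group means from 3.07 ± 0.45 (SD, n = 3) log2 CPM in uninjured B6 mice to 3.90 ± 0.20 (SD, n = 3) in PE-treated MRL mice. In MRL mice, its level was 4.04, 3.98 and 3.66 log2 CPM with PE against 3.20, 3.51 and 3.20 in uninjured muscle and 3.35, 2.86 and 3.22 with saline. The PE libraries were above those of both other groups (38.8% and 20.2% of all genes did not overlap in these comparisons), but the differences of 0.59 and 0.75 on the log2 scale did not pass the test (adjusted p = 0.0839 and 0.117, limma). Averaged over treatments, Vhl differed between strains by 0.11 (95% interval -0.14 to 0.35, adjusted p = 0.552), with the opposite sign at equal totals.

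Among the targets, none passed the averaged strain comparison. The difference was 0.12 on the log2 scale for Vegfa (95% interval -0.31 to 0.55, adjusted p = 0.718), which encodes the chief angiogenic growth factor, and its sign turned at equal totals and with quantile normalization. For Bnip3, which encodes a mitophagy receptor, the difference was 0.43 (95% interval 0.01 to 0.86, adjusted p = 0.152). Pdk1 encodes a kinase that shuts off pyruvate dehydrogenase, and its difference was 0.52 (95% interval 0.13 to 0.92, adjusted p = 0.0681). For Slc2a1, the gene of the glucose transporter GLUT1, it was -0.29 (95% interval -0.84 to 0.25, adjusted p = 0.456). Bnip3 and Pdk1 passed the test when MRL PE replicate 2 was left out, at 0.62 (adjusted p = 9.75e-04) and 0.66 (adjusted p = 0.00297). In that fit 3 of 10 members and 32.7% of all genes were called. Slc2a1 was then at -0.49 (adjusted p = 0.0552) and Vegfa at 0.25 (adjusted p = 0.27). Without B6 PE replicate 2, Slc2a1 was at -0.21 and Vegfa at 0.06. With the replicate block the same 3 members were called, Bnip3 at an adjusted p of 0.045 and Pdk1 at 0.0377.

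**Figure D2:**
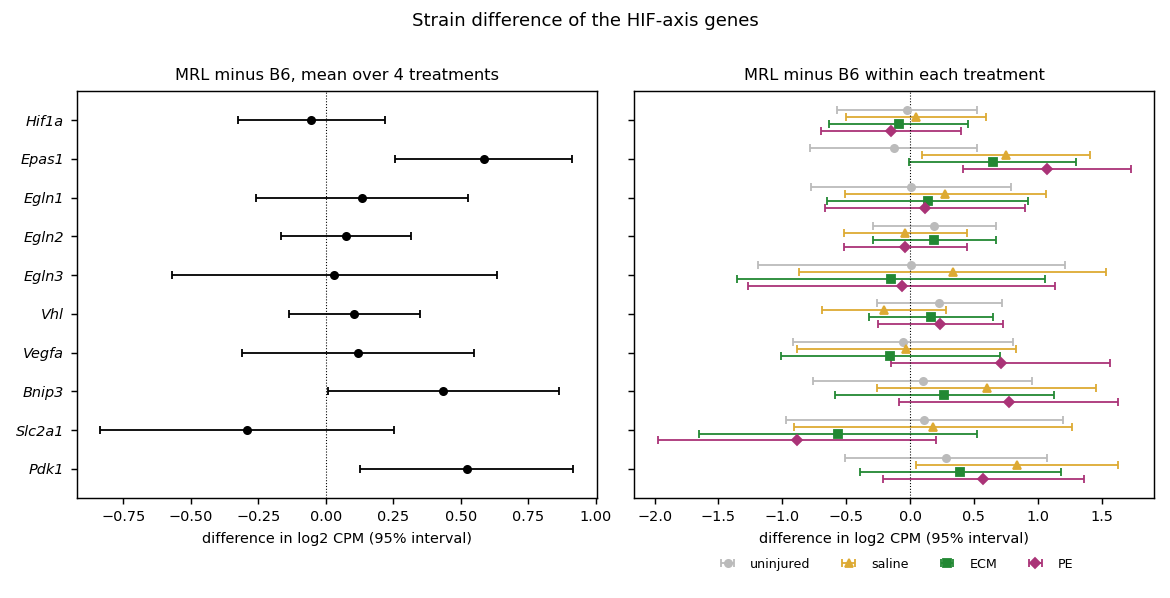
Difference between MRL and B6 mice in log2 CPM (x axis) with its 95% interval for each of the 10 genes (y axis), averaged over treatments (left) and within each treatment (right). The Epas1 interval on the left, 0.26 to 0.91, lies above 0, and the Hif1a interval, -0.33 to 0.22, spans it.

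Within single treatments, 0 of 10 genes were called between strains in uninjured muscle, with saline, with ECM or with PE by limma, beside 2.6%, 2.51%, 2.66% and 3.35% of all genes. The count at an unadjusted p under 0.05 was 0, 2 (Epas1 and Pdk1), 0 and 1 (Epas1), beside 10.9%, 13.3%, 13.4% and 19.1% of all genes. Pdk1 in uninjured muscle was 6.99, 6.99 and 6.52 log2 CPM in B6 and 7.23, 7.05 and 7.06 in MRL mice. The groups did not overlap, as for 21.8% of all genes, and the difference of 0.28 did not pass the test (adjusted p = 0.878). With PE, the count was 0 of 10 in all libraries and 5 of 10 without MRL PE replicate 2, where 24.6% of all genes were called. Epas1, Bnip3 (1.5, adjusted p = 4.65e-04), Vegfa (1.24, adjusted p = 0.0214) and Pdk1 (1.11, adjusted p = 0.0171) were then higher in MRL mice, and Slc2a1 was lower (-1.69, adjusted p = 0.00616). Without replicate 2 of both strains, 3 of 10 were called, Epas1, Bnip3 and Slc2a1, with 16% of all genes. Without B6 PE replicate 2 alone, 0 of 10 and 2.08% of all genes were called, with differences of 0.51 for Bnip3 and -0.57 for Slc2a1. With all libraries the differences were 0.77 for Bnip3, 0.71 for Vegfa, 0.57 for Pdk1 and -0.89 for Slc2a1. Cell markers also differed with PE between strains. Red blood cell markers had 5 of 6 called higher in MRL mice, among them Hba-a1 at 43.3-fold, and adipocyte markers had 1 of 6 called higher, Lep (adjusted p = 0.0405). The 6 adipocyte markers were from 5.93-fold (Retn) to 29.6-fold (Plin1) higher in MRL mice. Their sum with PE was 148 to 2372 CPM in MRL and 41.3 to 124 CPM in B6 mice. Neutrophil markers had 2 of 4 called lower, S100a8 and S100a9, macrophage markers had 1 of 7 called lower, C1qb, and the muscle fibre, endothelial and fibroblast lists had 0 called. The part of these cells in the differences of the members was not tested.

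The next question was what the injury and the implants did to the axis at day 21. In B6 mice with PE, 6 of 10 genes differed from uninjured muscle, and 24.8% of all genes did. Epas1, Egln1, Vegfa, Bnip3 and Pdk1 fell, 5 of 10 where 10% of all genes fell, and Slc2a1 rose, 1 of 10 where 14.7% rose. The median difference over the 10 genes was -0.97 on the log2 scale, and it was 0.02 over all genes. In MRL mice with PE, 0 of 10 were called against uninjured muscle by limma, and 9.73% of all genes were called. At an unadjusted p under 0.05 there were 4 members (Egln1, Egln2, Vhl and Pdk1) and 36.1% of all genes. Groups did not overlap for 7 members in B6 mice and 5 in MRL mice, beside 51.1% and 38.8% of all genes. The difference between the strains in this comparison was not tested as an interaction.

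Vegfa showed the deepest fall in B6 mice. In B6 mice, its level was 8.55, 8.24 and 8.66 log2 CPM in uninjured muscle, 7.86, 8.52 and 8.86 with saline, 8.03, 8.11 and 8.02 with ECM, and 6.99, 6.51 and 7.36 with PE. All PE libraries were below all other B6 libraries. The level fell by 1.53 on the log2 scale against uninjured muscle (2.89-fold, SE 0.41, adjusted p = 0.0152) and by 1.46 against saline (2.75-fold, adjusted p = 0.0431). In MRL mice, the PE level was 8.30, 6.60 and 8.08 log2 CPM against 8.98, 8.27 and 8.04 in uninjured muscle. Only replicate 2 was as low as in B6 mice, the other two lay within the uninjured range, and the difference of -0.77, which was -0.24 without replicate 2, did not pass the test.

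Bnip3 was tightly grouped in uninjured B6 muscle. In B6 mice, its level was 7.84, 7.82 and 7.89 log2 CPM in uninjured muscle, 7.46, 7.52 and 6.78 with saline, 7.25, 7.32 and 7.30 with ECM, and 6.58, 5.93 and 6.83 with PE. Every injured library was below every uninjured one. With PE it fell by 1.40 on the log2 scale against uninjured muscle (2.64-fold, SE 0.41, adjusted p = 0.0215). In MRL mice, its level was 8.15, 7.94 and 7.75 log2 CPM in uninjured muscle, 7.43, 8.28 and 7.86 with saline, 7.65, 7.74 and 7.27 with ECM, and 8.07, 5.75 and 7.83 with PE. The PE libraries other than replicate 2 were in the uninjured range. Without that library the PE difference in MRL mice was 0.00086 on the log2 scale, and it was -0.73 with it. Transcripts of 14 other genes matched Bnip3 over at least 50% of the shorter transcript at 90% identity or more, of which 1, Wipf2, was in the matrix, so some Bnip3 reads could be shared with them. Egln2 had 7 such genes, none of them in the matrix, and the other 8 members had 0.

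**Figure D3:**
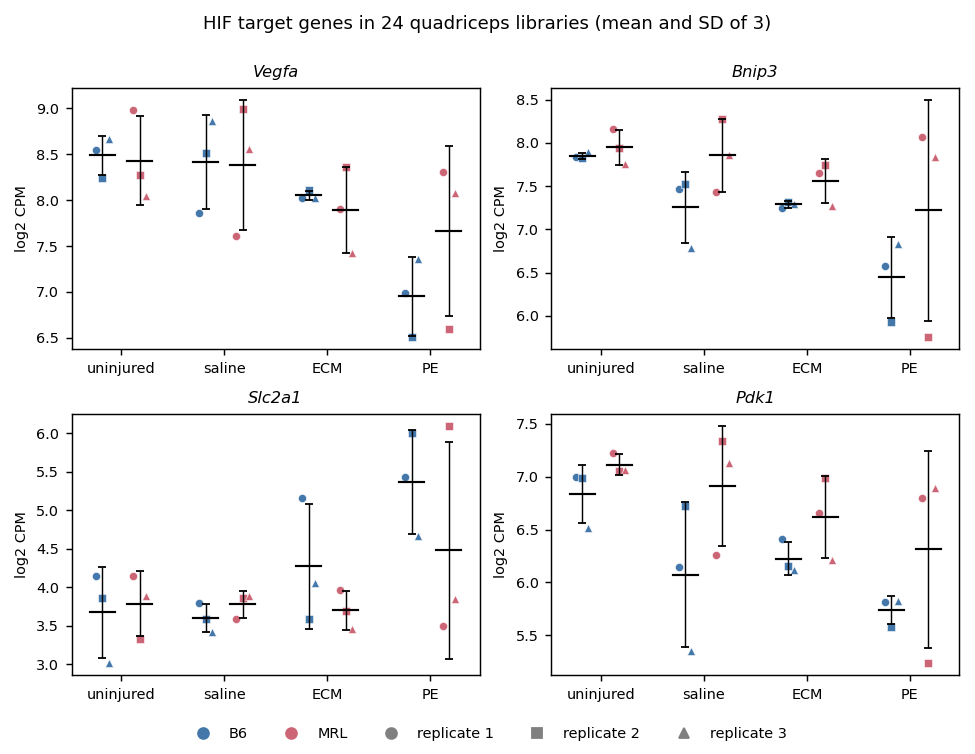
Levels of the 4 HIF target genes in log2 CPM (y axis) for the 4 treatments (x axis) in B6 (blue) and MRL (red) mice, with 1 symbol per library, the mean as a bar and the SD of 3 libraries as the error bar. In PE-treated MRL mice replicate 2 (square) lies near or beyond the PE-treated B6 libraries for all 4 genes, apart from replicates 1 and 3.

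Pdk1 followed the same order. In B6 mice, its level was 6.99, 6.99 and 6.52 log2 CPM in uninjured muscle, 6.15, 6.72 and 5.35 with saline, 6.41, 6.15 and 6.12 with ECM, and 5.81, 5.58 and 5.82 with PE. The PE and ECM libraries were below all uninjured ones. With PE it fell by 1.10 (2.14-fold, SE 0.38, adjusted p = 0.0417), and Egln1 fell by 1.12 (2.18-fold, SE 0.37, adjusted p = 0.0373). In MRL mice, the Pdk1 level was 7.23, 7.05 and 7.06 log2 CPM in uninjured muscle, 6.26, 7.34 and 7.13 with saline, 6.65, 6.99 and 6.22 with ECM, and 6.80, 5.23 and 6.90 with PE. All MRL PE libraries were below the uninjured ones, and the differences of -0.80 for Pdk1 and -1.01 for Egln1 did not pass the test (adjusted p = 0.134 and 0.071). Without PE replicate 2 they were -0.26 and -0.68.

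Slc2a1 was the one target that rose. In B6 mice, its level was 4.15, 3.86 and 3.01 log2 CPM in uninjured muscle, 3.79, 3.59 and 3.42 with saline, 5.17, 3.59 and 4.06 with ECM, and 5.43, 6.01 and 4.67 with PE. The PE libraries were above all uninjured and saline libraries, and 1 ECM library lay among them. The PE level was 3.23-fold that of uninjured muscle (1.69 on the log2 scale, SE 0.52, adjusted p = 0.0269) and 3.41-fold that of saline (1.77, SE 0.52, adjusted p = 0.0499). In MRL mice, it was 4.15, 3.33 and 3.89 log2 CPM in uninjured muscle, 3.58, 3.86 and 3.89 with saline, 3.96, 3.69 and 3.46 with ECM, and 3.50, 6.10 and 3.85 with PE. Replicate 2 with PE was the highest of all 24 libraries, and the remaining 11 MRL libraries had a range of 3.33 to 4.15. Without that library the PE difference in MRL mice was -0.11, and it was 0.69 with it.

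Epas1 fell by 1.39 on the log2 scale with PE in B6 mice (2.63-fold, SE 0.31, adjusted p = 0.00684), the call with the smallest adjusted p among the 10 genes, and the difference of -0.19 in MRL mice did not pass the test. Without MRL PE replicate 2 the sign in MRL mice turned, to 0.26 (adjusted p = 0.603). Hif1a and Vhl had differences of 0.67 and 0.58 in B6 mice that did not pass the test (adjusted p = 0.0646 and 0.0702). Without B6 PE replicate 2 these were 0.41 and 0.57. The B6 calls rested on few libraries. Without B6 PE replicate 2, 0 of 10 genes and 3.76% of all genes were called, with differences such as -1.26 for Epas1 (adjusted p = 0.0525) and -1.31 for Vegfa (adjusted p = 0.0932). Without replicate 2 of both PE groups, 5 of 10 were called, all but Egln1, with 18.1% of all genes. The count was 3 without B6 PE replicate 1, 3 without uninjured B6 replicate 1 and 1, Epas1, without uninjured B6 replicate 3. At equal totals, which raised the median of all genes by 0.41 in this comparison, 3 genes rose (Hif1a, Vhl and Slc2a1) and 3 fell (Epas1, Vegfa and Bnip3).

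**Figure D4:**
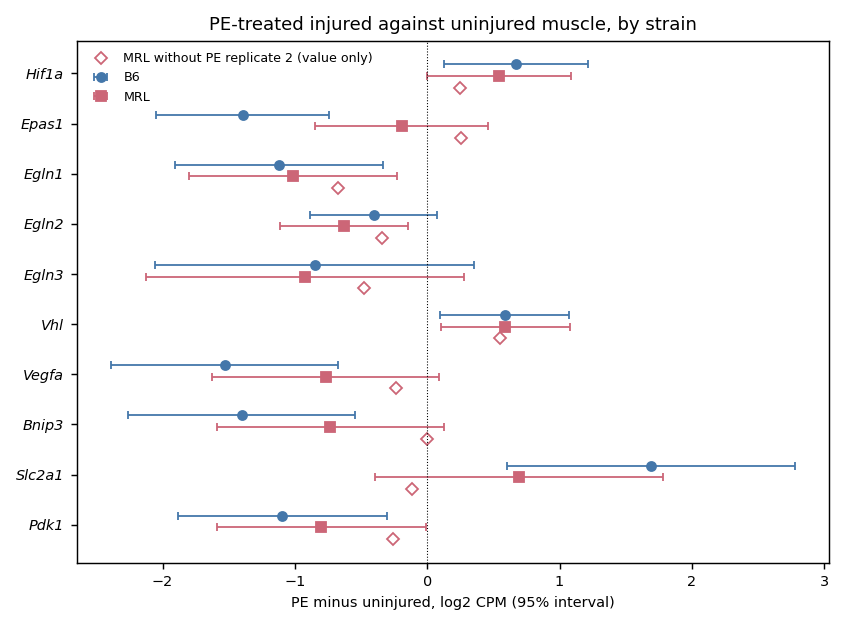
Difference between PE-treated and uninjured muscle in log2 CPM (x axis) with its 95% interval for the 10 genes (y axis) in B6 (blue circles) and MRL (red squares) mice. Open diamonds give the MRL value without PE replicate 2, where Bnip3 is at 0.00086 and Slc2a1 at -0.11, while the B6 values with all libraries are -1.40 and 1.69. Without B6 PE replicate 2, which is not drawn, the B6 values are -1.14 and 1.37, and neither is called (adjusted p = 0.126 and 0.142, limma).

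Markers of other cells moved in the same B6 comparison. Macrophage markers summed to 136 to 183 CPM in uninjured and to 1438 to 5155 CPM in PE-treated B6 mice, with 6 of 7 called higher. Neutrophil markers had 4 of 4 called higher, from 1.00 to 3.08 CPM to 16.3 to 127 CPM, and in this list S100a8 and S100a9 were each at 0 in 1 of the 24 libraries. Fibroblast markers had 3 of 6 called higher, from 1010 to 1476 CPM to 4244 to 7708 CPM. Muscle fibre markers had 1 of 8 called lower, from 117630 to 152056 CPM to 41814 to 92526 CPM. Endothelial markers had 3 of 7 called lower, from 336 to 382 CPM to 240 to 305 CPM, adipocyte markers 1 of 6, from 358 to 1564 CPM to 41.3 to 124 CPM, and red blood cell markers 6 of 6, from 1316 to 2905 CPM to 70.3 to 118 CPM, with Slc4a1 at 0 in 3 of the 24 libraries. In MRL mice, the macrophage sum was 82.1 to 174 CPM in uninjured muscle and 238, 239 and 4277 CPM with PE, and the muscle fibre sum was 126404 to 161415 CPM and 25913 to 101189 CPM, with 4 of 7 macrophage markers called higher and 0 of 8 muscle fibre markers called. The part of these cells in the changes of the 10 genes was not tested.

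**Figure D5:**
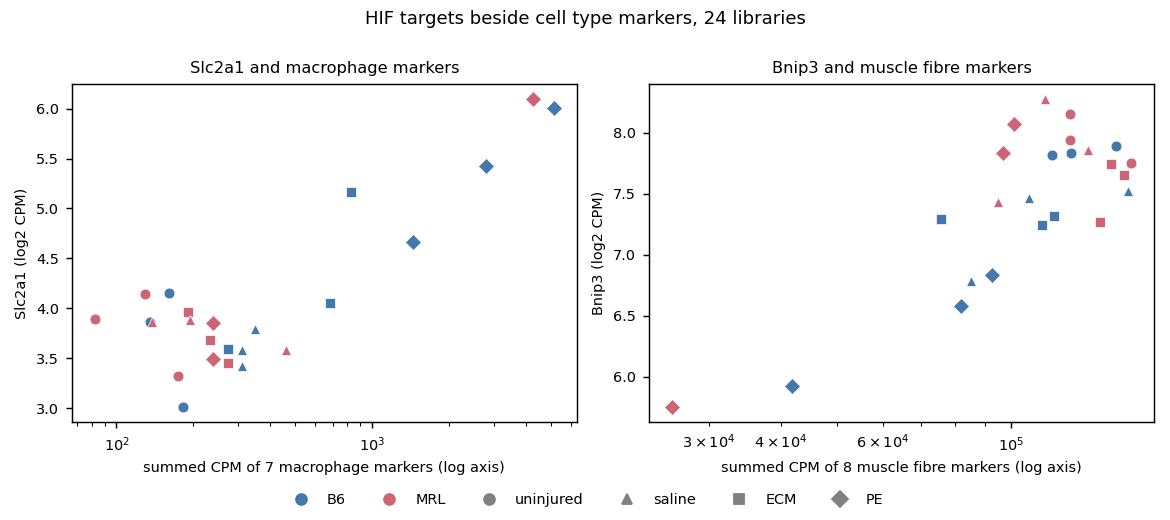
Slc2a1 level in log2 CPM against the summed CPM of 7 macrophage markers (left) and Bnip3 level in log2 CPM against the summed CPM of 8 muscle fibre markers (right), both x axes on a log scale, with 1 symbol per library, colour for strain and shape for treatment. The MRL PE library at 4277 CPM of macrophage markers lies beside the PE-treated B6 libraries, and the other 2 MRL PE libraries, at 238 and 239 CPM, lie among the uninjured and saline libraries.

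Against saline, 2 of 10 genes were called with PE in B6 mice, Vegfa and Slc2a1, and 5.97% of all genes. Of all genes 5.37% rose and 0.6% fell. Groups did not overlap for 4 members, beside 29.7% of all genes. Either call was lost under several other settings, and 0 were called without B6 PE replicate 1 or 2 or without any single B6 saline library. Macrophage markers had 5 of 7 called higher in that comparison, and neutrophil markers 4 of 4. Against ECM, 0 of 10 were called with PE in B6 mice by limma, and 0.226% of all genes were called. At an unadjusted p under 0.05 there were 4 members and 20.6% of all genes. The lowest and highest of these differences were -1.10 for Vegfa and 1.10 for Slc2a1.

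The control injury and ECM changed none of the 10 genes by the test. In B6 mice, 0 of 10 and 0% of all genes were called between saline and uninjured muscle, 0 of 10 and 0.424% between ECM and uninjured muscle, and 0 of 10 and 0.0283% between ECM and saline. Epas1 came nearest, with differences from uninjured muscle of -0.73 with saline (adjusted p = 0.37) and -0.99 with ECM (adjusted p = 0.144). Members that did not overlap with uninjured muscle were 2 of 10 for saline and 4 of 10 for ECM, beside 15.9% and 32.3% of all genes. At an unadjusted p under 0.05 there was 1 member, Epas1, in each of these, beside 12.4% and 16.8% of all genes, and 0 members between ECM and saline, beside 3.99%. When only the ECM and uninjured B6 libraries were fitted, Epas1 (adjusted p = 0.013) and Bnip3 were called. In MRL mice, 0 of 10 were called in any of the 6 comparisons between treatments. The share of all genes called was 0% for saline and 0.0141% for ECM against uninjured muscle, 0.00706% for ECM and 0% for PE against saline, and 0% for PE against ECM. At an unadjusted p under 0.05 there were 0 members for saline and 0 for ECM against uninjured muscle and 0 for ECM against saline, beside 3.1%, 3.8% and 3.55% of all genes, and 2 for PE against saline and 2 against ECM, beside 23.3% and 28.4%. The smallest adjusted p among members was 0.117 for PE against saline (Vhl) and 0.0864 for PE against ECM (Egln2), and without MRL PE replicate 2 these were 0.24 and 0.378. These comparisons within a strain share their control libraries, so they are not independent of each other.

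Whether the strains responded differently was tested with 3 interactions, saline against uninjured, ECM against saline and PE against saline. Of the 10 genes 0 were called in each by limma, as were 0% of all genes, and 0 had an unadjusted p under 0.05, beside 4.03%, 2.26% and 4.34% of all genes. The interaction estimates for PE against saline ran from -1.06 for Slc2a1 to 0.74 for Vegfa on the log2 scale (MRL minus B6), with standard errors of 0.74 and 0.58. The count of members called did not depend on MRL PE replicate 2, but the size of the estimates did. Without it 4.41% of all genes and 0 of 10 members were called, and 4 members had an unadjusted p under 0.05. These were Slc2a1 at -1.87 (adjusted p = 0.0652, limma), Vegfa at 1.27 (adjusted p = 0.17), Bnip3 at 0.90 (adjusted p = 0.165) and Epas1 at 0.77 (adjusted p = 0.258). Without B6 PE replicate 2, 0 members and 0% of all genes were called. Slc2a1 was then at -0.74, Vegfa at 0.51, Bnip3 at -0.09 and Epas1 at 0.19.

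Other genes of the pathway were counted from lists compiled with earlier results known. Among HIF partners and other oxygen sensors, 4 of 9 measured genes were called higher in MRL mice in the average over treatments. Of all genes, 7.37% were called higher there. Hif1an, which encodes the asparagine hydroxylase that blocks HIF transactivation, differed by 0.83 on the log2 scale (SE 0.22, adjusted p = 0.0146). P4htm, a transmembrane prolyl hydroxylase gene, differed by 0.53 (SE 0.13, adjusted p = 0.00722), and Cited2, whose product competes with HIF for its coactivators, by 0.42 (SE 0.11, adjusted p = 0.0173). The list had 0 of 9 called with PE in B6 mice. Siah2, a ubiquitin ligase gene that acts on prolyl hydroxylases, was 0.54 higher in uninjured MRL than B6 muscle (adjusted p = 0.049), and it fell by 0.48 with PE in MRL mice (adjusted p = 0.0474). The calls with PE in this list and in the lists below are from all libraries. Without MRL PE replicate 2, 1 of 14159 genes was called against uninjured muscle in MRL mice, and without B6 PE replicate 2, 3.76% of all genes were called in B6 mice. Of the 4 partners of VHL in its ligase complex, 0 were called with PE in B6 mice, and 2 fell in MRL mice, where 9.73% of all genes were called, Tceb1 by 0.68 (adjusted p = 0.0448) and Rbx1 by 0.51 (adjusted p = 0.0491).

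The VEGF family and its receptors had 0 of 9 genes called between strains on average by limma, beside 15.2% of all genes, and 2 had an unadjusted p under 0.05. With PE in B6 mice 3 of 9 fell and 1 rose, where 10% of all genes fell and 14.7% rose. Those that fell were the receptor genes Flt1 by 1.55 and Kdr by 1.39 on the log2 scale and the ligand gene Vegfb by 1.45 (adjusted p = 0.0122, 0.00986 and 0.0142), while the coreceptor gene Nrp2 rose by 1.46 (adjusted p = 0.045). Nrp2 also rose by 1.79 in MRL mice with PE (adjusted p = 0.0465), as did Figf, the gene of VEGF-D, by 0.95 (adjusted p = 0.0474). Against saline in B6 mice, Nrp2 rose by 2.27 (adjusted p = 0.0234).

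In the list of pyruvate dehydrogenase and the enzymes that regulate it, 4 of 7 genes fell and 1 rose with PE in B6 mice, beside 10% and 14.7% of all genes. Pdk4, a kinase gene induced by fasting, fell by 3.17 on the log2 scale (adjusted p = 0.00604), and the subunit genes Pdha1 and Pdhb fell by 1.53 and 1.18 (adjusted p = 0.0165 and 0.018), while the kinase gene Pdk3 rose by 1.95 (adjusted p = 0.0127). In uninjured muscle Pdk4 was lower in MRL than in B6 mice by -2.61 (adjusted p = 0.0482). Pdp1, a phosphatase gene of the same enzyme, was 0.56 higher in MRL mice on average (adjusted p = 0.038) and fell by 1.19 with PE in MRL mice (adjusted p = 0.0473).

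Of 33 other hypoxia target genes, 1 rose and 2 fell with PE in B6 mice, where 24.8% of all genes were called. Hmox1, the heme oxygenase gene, rose by 3.27 on the log2 scale (adjusted p = 0.00264), and the mitochondrial protein genes Higd1a and Fam162a fell by 0.77 and 0.66 (adjusted p = 0.0301 and 0.0318). Against saline Hmox1 rose by 2.88 (adjusted p = 0.0198). In MRL mice with PE, Lox, which crosslinks collagen, rose by 1.90 (adjusted p = 0.0483) and Higd1a fell by 0.79 (adjusted p = 0.0484). On average over treatments 4 of the 33 were higher and 2 lower in MRL mice, beside 7.37% and 7.87% of all genes. Ak4, a mitochondrial adenylate kinase gene, was 1.19 higher (SE 0.17, adjusted p = 5.85e-05) and was also called with saline (1.80, adjusted p = 0.00388) and with PE (1.27, adjusted p = 0.0486), while Bnip3l and Kdm3a were lower by -0.34 each (adjusted p = 0.0168 and 0.0412). The median difference of the 33 genes was -0.03, and it was -0.01 over all genes.

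Across the 24 libraries the members fell on opposite sides. As a description over libraries that share depth and tissue composition, Pearson's r was 0.91 between Bnip3 and Pdk1, 0.89 between Epas1 and Bnip3, and 0.88 between Epas1 and Pdk1. After subtraction of the group means r was 0.86, 0.89 and 0.87. Hif1a had negative values with Vegfa (-0.85), Egln1 (-0.78) and Egln3 (-0.73) and positive values with Slc2a1 (0.73) and Vhl (0.71).

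The genes most like each member over the 24 libraries were also listed by Pearson's r, 3 per member. For Bnip3 they were Poldip2 (0.977), Pdha1 (0.971) and Cs (0.968), the last being citrate synthase, and for Egln2 they were Jph2 (0.961), Ldha (0.958) and Myoz1 (0.956), of which Jph2 and Myoz1 encode proteins of muscle. For Epas1 they were Bmp6 (0.958), Acat1 (0.958) and Etfdh (0.944), for Pdk1 Mavs (0.96), Crat (0.96) and Grpel1 (0.959), and for Egln1 Cd24a (0.972), Abcb4 (0.971) and Ptp4a3 (0.965). For Vegfa they were mt-Cytb (0.948), Ndufs8 (0.94) and Ybx2 (0.94), the first 2 of which encode parts of the respiratory chain. For Slc2a1 they were Bst1 (0.915), Manba (0.914) and Egr2 (0.913), for Hif1a Clptm1l (0.94), 1700017B05Rik (0.933) and Bahd1 (0.931), for Egln3 Got1 (0.932), Dnaja4 (0.913) and Abtb2 (0.911), and for Vhl Ttyh2 (0.852), Abca1 (0.841) and Tap2 (0.821). No gene reached 0.9 with Vhl.

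In position, the members were spread over 7 chromosomes of GRCm39. Hif1a (chr12:73948149-73996321) and Egln3 (chr12:54225767-54250673) were on chromosome 12, Epas1 (chr17:87061087-87140838) and Vegfa (chr17:46327919-46343309) on chromosome 17, and Egln2 (chr7:26853588-26866408) and Bnip3 (chr7:138490690-138511253) on chromosome 7. Egln1 (chr8:125635308-125676865), Vhl (chr6:113600920-113608599), Slc2a1 (chr4:118965908-118996365) and Pdk1 (chr2:71703488-71734202) were on chromosomes of their own. All 10 are protein-coding genes, and the values count reads over their transcripts.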

How the data were processed

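Bulk RNA was sequenced from 24 quadriceps samples, which the study's methods call independent, in 8 groups of 3 by strain and treatment. Per the methods, the authors pseudoaligned reads to Ensembl GRCm39 cDNA by kallisto, summed them to symbols with tximport, kept genes over 1 CPM in at least 3 libraries, applied edgeR's TMM and deposited log2 CPM with edgeR's prior count of 2. A row lacking a symbol was dropped. Tests used limma 3.58.1 (R 4.3.3), with 1 coefficient per group over 24 libraries and a variance trend, in 20 comparisons, 2-sided. Genes were called at an adjusted p under 0.05 (Benjamini-Hochberg over 14159 genes). For marker sums, the prior was subtracted to give linear CPM. The procedure was tested on simulated data. Printed members were those called or at an unadjusted p under 0.05, listed genes up to 3 called per direction, and those named beyond this were chosen after their values were seen, as were the left-out libraries. The members and lists were chosen with earlier results of these data known.

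Same-numbered libraries were checked for pairing by correlating their deviations from group means across genes. All 3 correlations exceeded 0.1 only for PE between strains (0.105, 0.532 and 0.439). Copies were searched with BLAST 2.17.0. Tables and figures used Python 3.11.15, pandas 2.3.3, Biopython 1.88 and matplotlib 3.10.9. Alternatives were a log2(CPM + 1) scale, a mean log2 CPM of at least 1, the compared groups alone, no trend, library weights, equal totals, quantile normalization, a replicate block and leaving out each library.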

Additional observations from a re-analysis of the deposited data

How the results depend on the processing

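The number of members called changed most with library weights. The default estimate of the weights stopped before it converged and gave PE-treated B6 replicate 1 a weight of 56.3, so a gene-by-gene estimate was added after seeing the data. The counts with default and gene-by-gene weights were 10 and 9 for B6 PE against uninjured (6 without weights), 10 and 4 against saline (2) and 9 and 7 against ECM (0), 7 and 1 for B6 saline and 2 and 2 for B6 ECM against uninjured (0), 1 and 1 for MRL PE against uninjured and 3 and 3 against saline (0), and 6 and 5 for the strain average (1). Between strains they were 7 and 2 with saline, 1 and 1 with ECM and 6 and 5 with PE (0), and 2 and 1 for the PE and 1 and 0 for the saline interaction (0). B6 PE against saline had 1 member with the compared groups alone, equal totals, a mean log2 CPM of at least 1, quantile normalization or both PE replicates 2 left out, and 0 without the variance trend. PE between strains had 1 at equal totals and with quantile normalization and 3 without both replicates 2. The strain average had 3 without both replicates 2, MRL PE against uninjured 1 at equal totals, and B6 ECM against uninjured 2 with the compared groups alone. With the replicate block, the count was 0 for B6 PE against saline, 1 for PE between strains, 3 for the strain average and 1 for MRL PE against uninjured (Egln2), and it changed no other count by over 1.5 times. Same-numbered libraries passed the correlation check only for PE between strains, and no label pairs them.

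Leaving out 1 library gave 0 to 6 members for B6 PE against uninjured, 0 to 3 against saline, 1 to 3 for the strain average, 0 to 5 for PE between strains, 0 to 2 for MRL PE against uninjured (2 without MRL PE replicate 1 and 1 without replicate 3) and 0 to 1 against ECM (1 without MRL PE replicate 3). The strain average had 2, Epas1 and Pdk1, without B6 saline replicate 2 or MRL saline replicate 1, and B6 PE against saline had 3 without B6 PE replicate 3. Where it left 2 libraries in a group, their spread was taken from all groups. Signs of the averaged strain difference turned at equal totals for Egln1 (-0.00848), Egln2 (-0.0684), Egln3 (-0.11), Vegfa (-0.0256) and Vhl (-0.036), with a shift of the median of all genes of -0.14, and with quantile normalization for Egln3 (-0.00284) and Vegfa (-0.00137). Leaving out 1 library moved Egln3 from -0.12 to 0.17 and Hif1a from -0.13 to 0.0105. The cause of these changes was not tested. The scale, the filter and the trend kept all 6 calls in B6 PE against uninjured. With 3 libraries per group, differences under about 1 on the log2 scale were often within the 95% interval of 0.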
